A study of Homo sapiens with 9 samples.

Results

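The control libraries of a study on MCF10A cells were described gene by gene, without reference to the knockdown that the study compared them with. MCF10A is a spontaneously immortalised, non-tumorigenic line of human mammary epithelial cells. The members were chosen by label: the 3 libraries marked shGFP, replicates 1 to 3, of 9 in the series. The other 6 libraries carried hairpins against CHAF1B and are not compared here. All 3 members came from MCF10A cells given a lentivirus (vector pLKO.1) with a short hairpin RNA against GFP, a jellyfish protein that human cells lack. Selection with puromycin at 2 µg/mL began after 24 hours, and total RNA was taken at day 3. The medium was DMEM:F12 with antibiotics (penicillin and streptomycin). Its additives were EGF at 20 ng/mL, cholera toxin at 100 ng/mL, insulin at 10 µg/mL, hydrocortisone at 0.5 mg/mL (the unit as labelled), and horse serum at 5%. Every value below therefore belongs to infected, puromycin-selected cells in a rich medium, not to untouched cells. Nothing in the labels says whether the replicates were separate cultures, so the SD (n = 3) given with each mean may be technical spread.

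The breast duct has an inner luminal layer, which makes milk and carries hormone receptors, and an outer basal layer, which rests on the basement membrane and contracts. Basal cells are known for keratins 5 and 14, the transcription factor p63, P-cadherin and the laminin-332 and integrin α6β4 of hemidesmosomes, the anchoring junctions to the membrane. EGF receptor signalling drives the growth of such cells in culture, insulin acts through its receptor, cholera toxin raises cyclic AMP, and hydrocortisone acts through the glucocorticoid receptor.

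The libraries held 24758334, 27137930 and 27471236 counts. A level is given as CPM, a gene's count scaled to a library of 1000000 counts, and where genes are compared, in CPM per kb of merged exons, since a long gene collects more reads than a short one at the same abundance. A gene was called not detected at 3 counts or fewer in every library, and 3 counts corresponded to 0.121, 0.112 and 0.108 CPM. Of 26149 genes with a length, 4981 (19%) were not detected, 9376 were under 1 CPM per kb, 7190 lay from 1 to 10, 4278 from 10 to 100, and 324 (1.24%) reached 100. The shares at 1 CPM per kb or more and at 10 or more were 45.1% and 17.6% of all genes. For the 15062 protein-coding genes these shares were 67.7% and 29.8%, with 2.1% at 100 CPM per kb or more, 8.78% not detected and a median level of 4.09 CPM per kb. These protein-coding shares are the background for each list count below, and the lists are described without a test. All shares, percentiles and medians of protein-coding genes cover only genes with a row in the table. Genes with hardly a count in the series have none. Genes are named by their GENCODE symbols, and those of a list that had no row in the table were not analysed here.

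The 5 cell markers chosen for basal mammary epithelium were all detected. KRT5, which encodes the type II keratin of basal cells, stood at 7418, 7927 and 7276 CPM in replicates 1, 2 and 3. Its mean of 7541 ± 342 CPM was the highest of any gene, but overlapped KRT81 (7190 ± 713) and MT-CO1 (6830 ± 1018) within their SDs. KRT81 was above KRT5 in replicate 2, and MT-CO1 was above it in replicate 3. Per kb, KRT5 was at 1757 ± 79.8 CPM. KRT14, the usual type I partner of KRT5, was at 27.7, 29.1 and 24.7 CPM per kb, far below KRT5 on the same scale. EGFR, the receptor for EGF, was at 41.9, 41.9 and 39.7 CPM per kb. CDH1, which encodes E-cadherin, was at 38.0, 37.5 and 37.9 CPM per kb. TP63, which encodes p63, was at 11, 11.1 and 11.3 CPM per kb. The replicates lay within a narrow band for each of the 5. Of the 50-base words in the longest KRT14 transcript, 23.8% also occurred in a transcript of another gene, against 3.99% for KRT5; the part of such shared sequence in the low KRT14 level was not tested. That share was at least 25%, and the level therefore uncertain, for MT-CO1. Among the genes named below, the same held for ACTA2, ARG2, CDK4, DUSP6, KRT18, OVOL1, PIK3CA, PRDX1, IER5L, MRPL12, NME2, SCAND1, IFNA1, SNHG6, LRRC75A-AS1 and MT-CO2, beside those marked where they appear.

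The promoter of KRT5, the gene with the highest mean CPM, is shown here from 250 bases before to 50 bases after its start, from RefSeq on GRCh38.p14 (minus strand, chr12:52520345-52520644). It holds 7 CpG dinucleotides and no match to the motifs searched below, so no letter is in capitals.
KRT5 promoter: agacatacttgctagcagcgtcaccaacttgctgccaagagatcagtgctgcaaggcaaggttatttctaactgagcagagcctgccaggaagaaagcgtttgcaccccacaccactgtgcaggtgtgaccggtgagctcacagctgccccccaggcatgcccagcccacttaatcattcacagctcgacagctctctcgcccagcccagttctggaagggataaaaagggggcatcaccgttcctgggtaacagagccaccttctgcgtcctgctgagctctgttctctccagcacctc

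Of the 9 basal and stratified keratins, 5 reached 10 CPM per kb and 3 reached 100. Beside KRT5, KRT6A, a keratin of wound edges and cultured keratinocytes, stood at 649, 692 and 645 CPM per kb. KRT17, found in basal and stressed epithelium, was at 298, 316 and 261 CPM per kb. KRT15 was at 20.7 ± 1.32 and KRT16 at 9.30 ± 0.658 CPM per kb, while KRT6B and KRT6C were at 4.97 ± 0.32 and 0.366 ± 0.0271 CPM per kb. KRT6A, KRT6B and KRT6C are near-identical copies, so the division of reads among them is uncertain. Of the 12 cornified and mucosal keratins, KRT10 at 14.8 ± 0.543 CPM per kb was the single member to reach 10, 8 were under 1 and 2 were not detected. KRT81, a keratin known from hair, had 3624, 4137 and 3420 CPM per kb, the highest keratin level per length. The longest KRT81 transcript shares 44.6% of its 50-base words with other genes, and its neighbour in sequence KRT86, named after its value was seen, had 9.68 CPM per kb, so the assignment of reads between them is uncertain.

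Keratins of simple epithelium were present but uneven. Of 5 analysed, 3 reached 10 CPM per kb. KRT7 was at 715, 772 and 659 CPM per kb, KRT18 at 75.9, 77.2 and 71.9, and KRT8, the usual partner of KRT18, at 20.4, 20.7 and 18.2. KRT19, a keratin of luminal cells, had 4, 9 and 3 counts, a mean of 0.0862 CPM per kb. KRT23 was lower still at 0.0564 CPM per kb, so KRT7 and KRT19, both luminal keratins in tissue, lay far apart. Over the whole table, 35 protein-coding keratin genes had a symbol of KRT and a number alone, which leaves out KRT6A, KRT6B and KRT6C. Of these 35, 4 reached 100 CPM per kb, 5 lay from 10 to 100, 5 from 1 to 10, 18 under 1, and 3 were not detected.

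**Figure D1:**
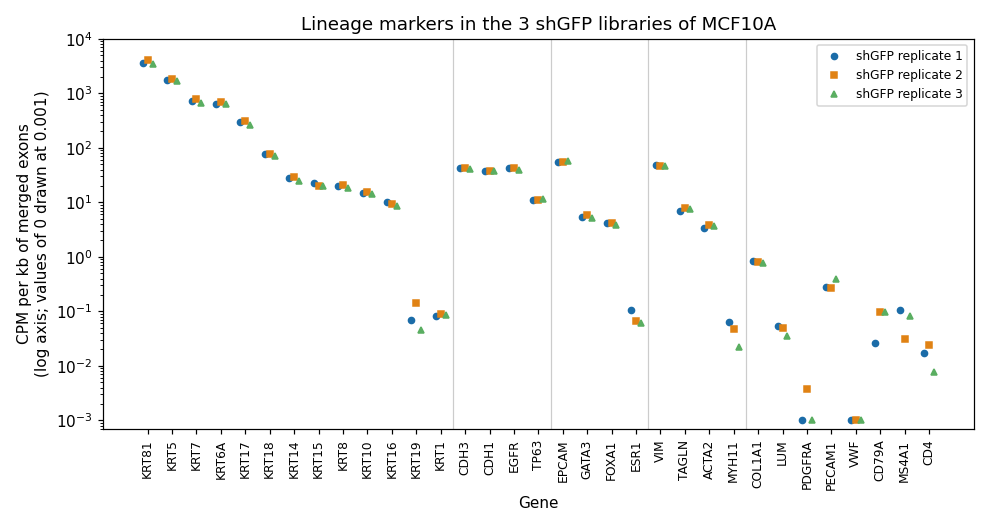
Level of lineage markers in each shGFP library, in CPM per kb of merged exons on a log axis, with symbols for the 3 replicates and values of 0 drawn at 0.001. Keratins are on the left, followed by basal, luminal, mesenchymal or contractile, and stromal or blood markers; KRT5 and KRT7 lie above 600 CPM per kb in every library, and VWF is at 0.

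Among transcription factors of epithelia, 6 of 15 analysed reached 10 CPM per kb. KLF5, a factor of proliferating basal epithelium, was at 42.0 ± 0.768 CPM per kb, below the highest member, which is not reported here, and ahead of the splicing regulators ESRP1 at 22.4 ± 0.384 and ESRP2 at 21.4 ± 0.504, whose ranges of mean ± SD nearly met. TFAP2A was at 16.1 ± 0.497 CPM per kb. At the low end were OVOL1 at 0.0192, ZNF750 at 0.0787 and ELF3 at 0.114 CPM per kb.

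Luminal and hormone-sensing markers spread over the whole range. Of 11 analysed, 4 reached 10 CPM per kb: EPCAM, an epithelial adhesion molecule, at 55.5 ± 1.09, CD24 at 28.3 ± 0.896, the secretory factor XBP1 at 26.3 ± 0.437 and the mucin MUC1 at 16 ± 1.11. The luminal transcription factors GATA3, at 5.46, 5.78 and 5.08 CPM per kb, and FOXA1, at 4.21, 4.25 and 3.78, lay close to the median of protein-coding genes. ESR1, the oestrogen receptor, had 37, 25 and 23 counts, a level of 0.0783 ± 0.0257 CPM per kb. PRLR, the prolactin receptor, had 7, 14 and 7 counts, and PROM1 was not detected. Of 8 milk protein genes only LPO, with 1, 4 and 3 counts, was analysed.

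Contractile genes of the myoepithelium were uneven, with a median of 3.6 CPM per kb, at percentile 47.7 of protein-coding genes. Of 11 analysed, 5 were under 1 and 4 lay from 1 to 10. The 2 at 10 or more were TPM2, a tropomyosin, at 92.0 ± 4.47, and CALD1, caldesmon, at 34.8 ± 0.894 CPM per kb. Both are also common in non-muscle cells. ACTA2, smooth muscle actin, was at 3.35, 3.80 and 3.65 CPM per kb and TAGLN at 6.99, 7.85 and 7.47. MYH11, smooth muscle myosin, had 25, 21 and 10 counts, and OXTR, the oxytocin receptor, was at 0.253 ± 0.0164 CPM per kb. Mesenchymal genes were measured beside the epithelial ones. VIM, the filament protein vimentin, was at 49.0, 46.7 and 46.9 CPM per kb, above CDH1, and SNAI2, a repressor found in basal mammary cells, was at 16.8 ± 0.48. These 2 of 11 mesenchymal factors reached 10 CPM per kb, while CDH2, N-cadherin, was at 2.54 ± 0.126, ZEB1 at 0.544 ± 0.0443, SNAI1 at 0.295 ± 0.0979 and ZEB2 at 0.107 ± 0.0147 CPM per kb.

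Cell-cell junction genes were high as a list: 19 of 27 reached 10 CPM per kb, with a median of 24.1. DSP, desmoplakin, which ties desmosomes to keratins, led at 131, 123 and 119 CPM per kb. The catenin CTNNA1 was at 91.7 ± 1.8, plakoglobin (JUP) at 76.2 ± 4.57 and the desmosomal cadherin DSG2 at 74.4 ± 0.758 CPM per kb. Shares of a family's summed level per kb showed which member dominated. Of the classical cadherins, CDH3 (P-cadherin) held 51.3% ± 0.803, CDH1 45.6% ± 0.622 and CDH2 3.07% ± 0.181. Of the desmogleins, DSG2 held 61.7% and DSG3 38.3%, and of the desmocollins DSC3 held 81.2% with DSC1 at 0 counts in every library. Of the plakophilins, PKP3 held 70.8% ± 2.85 and PKP2 29.2% ± 2.84, while PKP1 had 0, 3 and 5 counts. In tight junctions, CLDN7 stood at 39.6 ± 2.04 and CLDN1 at 24.0 ± 0.681 CPM per kb, against 0.563 ± 0.0591 for CLDN4 and 1.20 ± 0.0639 for OCLN. The gap junction connexin GJB5 was at 50.4 ± 2.36 CPM per kb.

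Genes for attachment to the basement membrane were among the highest outside the keratins. ITGB4, the β4 chain of the hemidesmosomal integrin, was at 171, 175 and 156 CPM per kb. ITGA6, its partner α6, was at 111, 106 and 110 CPM per kb. ITGB1, the β1 chain shared by many integrins, was at 128, 128 and 133 CPM per kb, and ITGA3, which pairs with it to bind laminin, at 81.8, 86.5 and 76.5. In all, 9 of 24 integrin genes reached 10 CPM per kb and 3 reached 100, while 8 were under 1 and 2 were not detected. ITGB3, a chain of platelet and endothelial integrins, had 0 counts in all 3 libraries, which by a limit of 3 pooled counts allows up to 0.0378 CPM (exact 95% Poisson upper bound 0.0465 CPM). It shares 56.2% of its 50-base words with other genes. Of the integrin chains of leukocytes, ITGAL was at 0.0117 and ITGAM at 0.128 CPM per kb, while ITGAE was at 3.5 ± 0.18 and ITGB2 at 3.00 ± 0.238.

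Laminin chains include those of the ligand of that integrin. LAMB3, a β chain of it, was at 224, 232 and 211 CPM per kb, and LAMA3, its α chain, at 48.7, 48.2 and 49.0. LAMB3 held 77.2% ± 0.778 of the laminin β chains and LAMA3 59.0% ± 3.95 of the α chains. LAMA5, of the laminins found under most epithelia, held the next share of the α chains, 40.3% ± 3.98, with 36.7, 36.0 and 27.5 CPM per kb. Replicate 3 was the lowest there. Of the 12 laminin genes, 7 reached 10 CPM per kb and 4 were under 1, with LAMC3 not detected. These shares depend on the length assigned to each gene: by the median length of a gene's transcripts, LAMA3 and LAMB3 held 35.9% and 25.7% and no longer led.

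Of 15 basement membrane partners, 7 reached 10 CPM per kb. COL17A1, the transmembrane collagen of hemidesmosomes, was at 102, 106 and 100 CPM per kb, PLEC, plectin, at 83.4, 79.6 and 57.3, and the tetraspanin CD151 at 61.6 ± 5.51. Within collagen IV, the network collagen of basement membranes, COL4A6 (14.9 ± 0.216) and COL4A5 (12.6 ± 0.239 CPM per kb) were above COL4A2 (6.31 ± 0.329) and COL4A1 (3.53 ± 0.208 CPM per kb), the chains found in all basement membranes. Before division by length, COL4A6, COL4A5 and COL4A2 were closer, at 138 ± 2, 149 ± 2.83 and 122 ± 6.34 CPM. Their order per kb thus depends on the merged exon lengths of 9.28, 11.9 and 19.3 kb. COL7A1, the anchoring fibril collagen, was at 2.91 ± 0.219 CPM per kb. The nidogens, linkers of laminin and collagen IV, were low, with NID1 at 0.0732 and NID2 at 0.0377 CPM per kb, while the proteoglycans AGRN and HSPG2 were at 38.5 ± 5.94 and 9.31 ± 1.05.

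Interstitial matrix was low in contrast. None of 20 other collagen genes reached 10 CPM per kb and 6 were not detected. COL8A1 was the highest at 7.19 ± 0.0759, then COL12A1 at 4.90 ± 0.21 CPM per kb. COL1A1, a chain of the main collagen of connective tissue, was at 0.830, 0.822 and 0.787 CPM per kb, and COL6A2 had 0 counts in each library. Of 22 matrix glycoproteins and proteoglycans, 9 reached 10 CPM per kb. TGFBI, an integrin-binding matrix protein, led at 170, 168 and 168 CPM per kb, followed by the syndecans SDC1 at 115 ± 6.43 and SDC4 at 89.8 ± 2.41. THBS1 and EFEMP1 were at 48.5 ± 0.552 and 49.1 ± 1.01 CPM per kb, within their SDs of each other. FN1, fibronectin, was at 1.71 ± 0.106 and TNC, tenascin C, at 0.880 ± 0.0454 CPM per kb, both below the protein-coding median.

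Among matrix proteases 8 of 24 reached 10 CPM per kb. The membrane-bound and lysosomal enzymes were the higher ones: ST14, matriptase, at 54.9, 60.5 and 49.5 CPM per kb, CTSL at 54.5 ± 1.41, ADAM9 at 52.6 ± 1.63, and MMP14 at 34.2, 36.8 and 32.3. Several secreted metalloproteases, though not every one, were near the floor, with MMP9 at 1, 2 and 1 counts and MMP1 at 2, 1 and 4 counts. Their inhibitors were high, with 11 of 16 inhibitors and receptors at 10 CPM per kb or more and 4 at 100 or more. TIMP1, an inhibitor of metalloproteases, was at 216, 238 and 212 CPM per kb, 81.1% ± 0.712 of the TIMP total. SLPI, an inhibitor of serine proteases, was at 215, 219 and 211 CPM per kb, so TIMP1 and SLPI overlapped. SERPINB5 (maspin) was at 158 ± 1.95 and the cystatin CSTA at 113 ± 8.36 CPM per kb.

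The S100 genes, small calcium-binding proteins clustered on chromosome 1, held the highest non-mitochondrial levels beside TMSB10 and KRT81. S100A2, abundant in basal epithelium, was at 3324, 3690 and 3634 CPM per kb, and S100A6 at 2704, 3056 and 2879. S100A11, S100A14, S100A16 and S100A10 followed at 1142, 1028, 630 and 515 CPM per kb, and 6 of 15 reached 100. S100A7, psoriasin, had 3, 11 and 3 counts. S100A9 at 73.1 ± 1.1 exceeded S100A8, its partner in calprotectin, at 11.7 ± 1.03 CPM per kb. None of 13 genes of squamous differentiation reached 10 CPM per kb. The highest was TGM1, the cross-linking enzyme of the cornified envelope, at 6.55 ± 0.268, and IVL, involucrin, was at 1.02 ± 0.192 and FLG, filaggrin, at 0.0994 ± 0.0172 CPM per kb.

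Other nuclear genes at the top of the range were short. TMSB10, an actin-binding thymosin, was at 3709, 4098 and 3865 CPM per kb, with a mean of 3891 ± 196 that overlapped the 3727 ± 370 of KRT81 within their SDs. MT2A, a zinc-binding metallothionein, had 2829, 3223 and 2719 CPM, or 2251 ± 204 per kb. Their RefSeq promoters (GRCh38.p14, plus strand) are set together because of these levels, with matches to TATAAA and to the motif GGGCGG (on the other strand CCGCCC) in capitals. TMSB10 lies at chr2:84905406-84905705 and MT2A at chr16:56608334-56608633.
TMSB10 promoter: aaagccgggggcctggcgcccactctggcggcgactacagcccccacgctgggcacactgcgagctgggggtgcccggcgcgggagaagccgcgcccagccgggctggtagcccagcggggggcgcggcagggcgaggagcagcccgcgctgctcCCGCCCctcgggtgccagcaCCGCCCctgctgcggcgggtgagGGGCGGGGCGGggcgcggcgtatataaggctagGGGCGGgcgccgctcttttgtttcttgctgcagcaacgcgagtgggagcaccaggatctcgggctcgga
MT2A promoter: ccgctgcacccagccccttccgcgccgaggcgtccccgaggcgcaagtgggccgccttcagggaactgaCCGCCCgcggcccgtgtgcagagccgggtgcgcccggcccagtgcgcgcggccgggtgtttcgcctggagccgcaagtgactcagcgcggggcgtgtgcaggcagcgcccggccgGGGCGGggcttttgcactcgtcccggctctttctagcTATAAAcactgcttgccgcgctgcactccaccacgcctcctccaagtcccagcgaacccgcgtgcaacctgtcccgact

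MT2A has TATAAA 29 bases before its start and 2 matches to GGGCGG, and TMSB10 has 5 matches to GGGCGG, some overlapping each other, and no TATAAA in the window. Such promoters were matched for 12007 of the 15062 protein-coding genes, taking the first start listed. TATAAA, searched on the gene's strand from 40 to 20 bases before the start, was in 2.4% of all promoters, 6.15% of those of genes at 100 CPM per kb or more, 1.55% at 10 to 100, 1.14% at 1 to 10, 4.14% under 1 and 5.91% of the not detected. The share was thus higher at both ends of the level range than in the middle. GGGCGG, searched on both strands in the 300 bases, was in 66.6% of all, in 46.4% of the not detected and in 73.8% of those at 100 CPM per kb or more. CpG dinucleotides had a median of 10 per promoter in genes not detected and 26 in those at 100 CPM per kb or more. These shares describe letters in a window and say nothing of factors bound there.

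**Figure D2:**
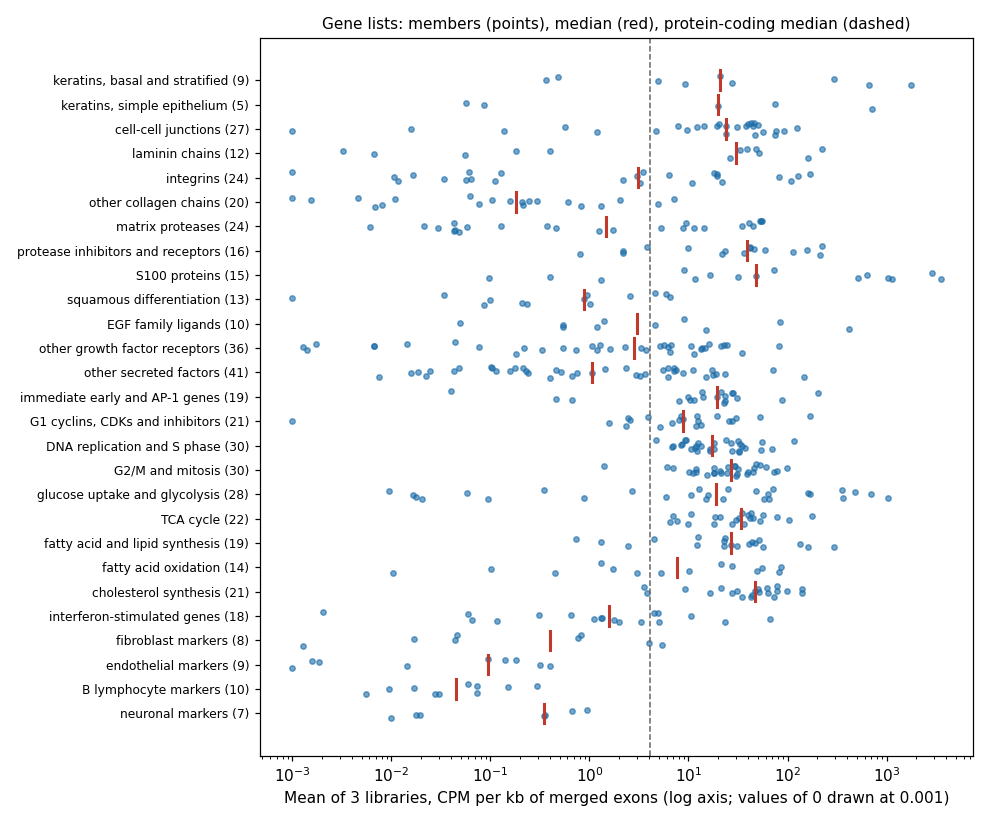
Mean level of every analysed member of 27 gene lists (points, CPM per kb on a log axis, values of 0 drawn at 0.001), with each list's median in red and the median of all protein-coding genes, 4.09 CPM per kb, as a dashed line. Numbers in brackets are members analysed; medians of the cholesterol synthesis and S100 lists lie above 40 CPM per kb, those of the blood and stromal marker lists under 1.

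The EGF system was represented by its receptor and a few ligands. EGFR held 81.3% ± 0.234 of the family's summed level per kb, ERBB2 14.9% ± 0.361 and ERBB3 3.74% ± 0.149. Of 10 ligand genes, 3 reached 10 CPM per kb. AREG, amphiregulin, was at 409, 420 and 427 CPM per kb, EPGN, epigen, at 82.9, 81.3 and 86.5, and TGFA at 14.9, 15.2 and 15.6. All 3 are ligands of EGFR. HBEGF was at 8.99 ± 0.373 and EREG at 4.57 ± 0.396 CPM per kb. EGF itself, which the medium supplies, had 9, 10 and 5 counts, and the ERBB3 ligand NRG1 was at 0.536 ± 0.0468 CPM per kb. FGFBP1, which releases FGFs from the matrix, was the highest of 41 other secreted factors at 141, 148 and 145 CPM per kb.

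Of these secreted factors 8 reached 10 CPM per kb, 16 were under 1 and 4 were not detected. IL1A, a cytokine stored by epithelial cells, was at 67.5, 68.0 and 77.9 CPM per kb, with replicate 3 highest. CXCL1 was at 23.2 ± 0.814, VEGFB at 19.0 ± 1.31, GDF15 at 17.7 ± 3.18, and CSF3, which encodes G-CSF, at 17.4 ± 0.927 CPM per kb. TGFB1 was at 11.7, 13.1 and 8.79 CPM per kb and held 92.6% ± 2.31 of the TGF-β ligands. IL6 had 2, 0 and 2 counts and FGF7, a factor of fibroblasts, 1, 2 and 1. Of 5 IGF-binding proteins, IGFBP7 at 36.9 ± 3.37 and IGFBP6 at 23 ± 2.35 CPM per kb reached 10, and IGFBP3 was at 0.0819 ± 0.0268.

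Among 36 other growth factor receptors, 11 reached 10 CPM per kb and 4 were not detected. TGFBR2, the type II TGF-β receptor, was the highest at 81.2, 82.7 and 83.7 CPM per kb. The Wnt receptor FZD6 was at 35.1 ± 0.782, DDR1, a collagen receptor, at 24.5 ± 1.57, MET, the receptor for HGF, at 22.7 ± 0.544 and OSMR at 21.3 ± 0.355 CPM per kb. IGF1R was at 6.44 ± 0.22 and INSR, the insulin receptor, at 1.61 ± 0.104 CPM per kb. NOTCH1 held 54.2% ± 2.72 and NOTCH2 44.9% ± 2.69 of the NOTCH total; by the length of the longest transcript NOTCH1 held 47.3% and did not lead. All 4 FGF receptors were low, from FGFR1 at 0.329 to FGFR3 at 1.27 CPM per kb. PDGFRA, a receptor of fibroblasts, had 0, 1 and 0 counts, and RET 0, 0 and 1.

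Genes tied to the additives of the medium were looked at as lists, without a comparison to cells grown without them. NR3C1, the glucocorticoid receptor, was at 14.6, 14.7 and 14.9 CPM per kb. Of 12 genes of that list 5 reached 10 CPM per kb: DUSP1, a MAP kinase phosphatase, at 242, 259 and 231, FKBP5 at 94.8, 95.4 and 97.8, TSC22D3 at 16.8 ± 0.394, PER1 at 15.5 ± 0.637, and the receptor. SGK1 was at 4.98 ± 0.131 and SERPINA3 at 0.179 ± 0.033 CPM per kb, both also known glucocorticoid targets, and SERPINA3 is uncertain with 56.6% of 50-base words shared. In the cyclic AMP list, 4 of 18 reached 10 CPM per kb, led by GNAS, the G protein that cholera toxin modifies, at 44.6 ± 2.21 and the kinase subunit PRKAR1A at 37.1 ± 0.812. The cyclic AMP targets NR4A1, NR4A2, NR4A3 and SIK1 were at 0.813, 1.39, 0.0438 and 0.206 CPM per kb, the last uncertain with 92.2% of 50-base words shared. Immediate early and AP-1 genes were higher, with 14 of 19 at 10 CPM per kb or more. MYC, a growth-promoting transcription factor, was at 201, 212 and 195 CPM per kb, IER3 at 87.6 ± 6.18, FOSL1 at 30.7 ± 1.42, DUSP6 at 28.0 ± 0.288, EGR1 at 27.7 ± 1.28 and FOS at 9.80 ± 0.537.

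Cell cycle genes were well above the floor. Of 30 genes of G2 and mitosis, 27 reached 10 CPM per kb, and of 30 genes of DNA replication 23 did, beside 29.8% of protein-coding genes; no member of either list was under 1. CCNB1, the cyclin of mitosis, was at 98.5, 98.2 and 99.4 CPM per kb, CDC20 at 78.1 ± 4.04, PTTG1 at 72.9 ± 1.98 and MKI67, which encodes Ki-67, at 24.8 ± 1.09. The exception at the low end was PRC1 at 1.39 CPM per kb in every library, a gene of which 63.9% of 50-base words are shared. PCNA, the sliding clamp of replication, was at 110, 119 and 119 CPM per kb, MCM3 at 69.5 ± 0.946, MCM7 at 55.1 ± 2.29 and RRM1 at 53.9 ± 0.402. CHAF1B, the gene targeted in the other libraries, was at 7.20, 8.32 and 7.41 CPM per kb here, and CHAF1A at 12.4 ± 0.235.

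The promoter of CCNB1 is printed as that of the highest gene per length of the mitotic list. CCAAT, searched on both strands, was in 76% of the 25 mitotic and 64% of the 25 replication genes with a promoter, against 36.4% of all. The CCNB1 promoter (RefSeq, GRCh38.p14, plus strand, chr5:69166900-69167199) holds 2 matches to CCAAT and 1 to GGGCGG as CCGCCC, in capitals.
CCNB1 promoter: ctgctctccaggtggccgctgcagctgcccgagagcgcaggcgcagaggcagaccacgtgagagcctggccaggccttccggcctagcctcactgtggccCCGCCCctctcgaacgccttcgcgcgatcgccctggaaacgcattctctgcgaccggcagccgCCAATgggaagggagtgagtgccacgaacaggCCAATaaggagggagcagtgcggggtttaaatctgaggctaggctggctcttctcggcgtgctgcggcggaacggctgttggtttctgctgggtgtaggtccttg

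Among 21 G1 regulators, 10 reached 10 CPM per kb. CDKN1A, the p21 inhibitor, was highest at 167, 182 and 162 CPM per kb, followed by CCND1 (cyclin D1) at 53.4, 53.9 and 50.1, E2F4 at 30.2 ± 1.02 and CDK4 at 27.2 ± 1.3. CCND1 held 60.6% ± 0.977 of the D-type cyclins but 45.1%, no longer the lead, by the length of the longest transcript. CCNE1 held 76.0% ± 1.64 of the E-type cyclins, and RB1 58.1% ± 0.604 of the retinoblastoma family. CDKN1B (p27) was at 12.5 ± 0.222 and CDKN2C (p18) at 3.87 ± 0.256 CPM per kb. Outside the G1 list, the ubiquitin ligase MDM2 was at 23.2 ± 0.553, the death receptor TNFRSF10B at 83.3 ± 1.61 and the proapoptotic BBC3 at 2.79 ± 0.393 CPM per kb.

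CDKN2A, which encodes the inhibitors p16 and ARF, had 0 counts in all 3 libraries. A limit of 3 pooled counts allows up to 0.0378 CPM, with an exact 95% Poisson upper bound of 0.0465 CPM. It has a row because other libraries of the table held counts for it. Its neighbour MTAP, an enzyme of methionine salvage 165 kb away by lower ends, had 1, 3 and 3 counts, or 0.0882 CPM pooled (95% exact Poisson interval 0.0355 to 0.182, counting error only). On that side KLHL9, 638 kb away, had 747, 746 and 753 counts, or 28.4 ± 1.55 CPM, HACD4, 968 kb away, 4, 4 and 6 counts, and FOCAD, 1309 kb away, 47.9 ± 1.91 CPM. On the other side DMRTA1, 479 kb away, had 41, 45 and 33 counts. Of 24 protein-coding genes with any part annotated within 1 Mb of CDKN2A, FOCAD among them by its upper end, 8 were analysed. Of these, 3 (CDKN2A, MTAP and IFNA1) were not detected, against 8.78% of the 15062 protein-coding genes with a row. CDKN2A itself set the window, and IFNA1, with 1, 0 and 0 counts, has a row only through other libraries. The count is therefore a description, and a regional difference was not tested. MCF10A is known to have lost the CDKN2A locus. From RNA counts alone a lost gene and a silent gene cannot be told apart.

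The promoter of CDKN2A upstream of the first start listed of 2 (RefSeq, GRCh38.p14, minus strand, chr9:21995275-21995574) is shown as the start of a gene with no count. It has 28 CpG dinucleotides, above the median of 10 among genes not detected, and no match to the 3 motifs.
CDKN2A promoter: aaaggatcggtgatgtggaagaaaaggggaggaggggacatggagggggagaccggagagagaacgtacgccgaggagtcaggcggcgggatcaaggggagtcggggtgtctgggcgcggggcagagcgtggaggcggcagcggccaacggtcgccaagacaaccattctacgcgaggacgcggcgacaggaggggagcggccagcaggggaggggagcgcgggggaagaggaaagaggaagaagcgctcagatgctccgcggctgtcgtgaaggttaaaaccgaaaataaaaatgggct

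**Figure D3:**
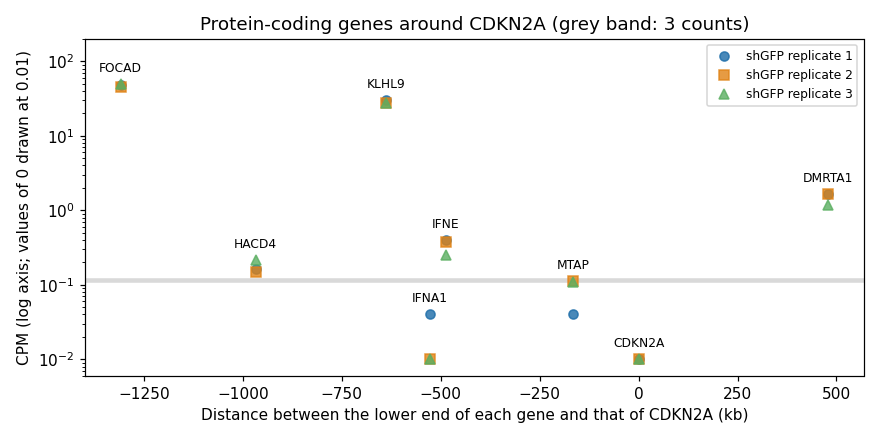
CPM of the 8 analysed protein-coding genes with any part within 1 Mb of CDKN2A in each shGFP library, on a log axis with values of 0 drawn at 0.01, against the distance between lower gene ends in kb. CDKN2A is at 0 in all 3 replicates, MTAP lies at or under the grey band of 3 counts, and KLHL9 and FOCAD lie near 28 and 48 CPM.

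Glycolytic enzymes were among the highest genes of metabolism. Of 28 genes of glucose uptake and glycolysis, 18 reached 10 CPM per kb and 7 reached 100. GAPDH was at 1013, 1102 and 1021 CPM per kb, ENO1 (enolase) at 680, 720 and 669, LDHB at 469, 493 and 487, LDHA at 356, 360 and 373, and PKM (pyruvate kinase) at 349, 370 and 352. For most steps a single isoenzyme dominated, with ENO1 at 99.8% of the enolases, PKM at 100% of the pyruvate kinases to 3 digits, PGAM1 at 95.9%, HK1 at 85.7% ± 0.426 and SLC2A1 at 99.5% of the glucose transporters. HK2 held the remaining 14.2% of hexokinase. LDHB held 57.1% ± 0.591 and LDHA 42.9% ± 0.589; by the median transcript length LDHB held 40.3%. SLC2A4, PKLR and LDHC, forms of other tissues, were not detected. ALDOA, GAPDH, PGAM1 and LDHB share at least 25% of their 50-base words with other genes.

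**Figure D4:**
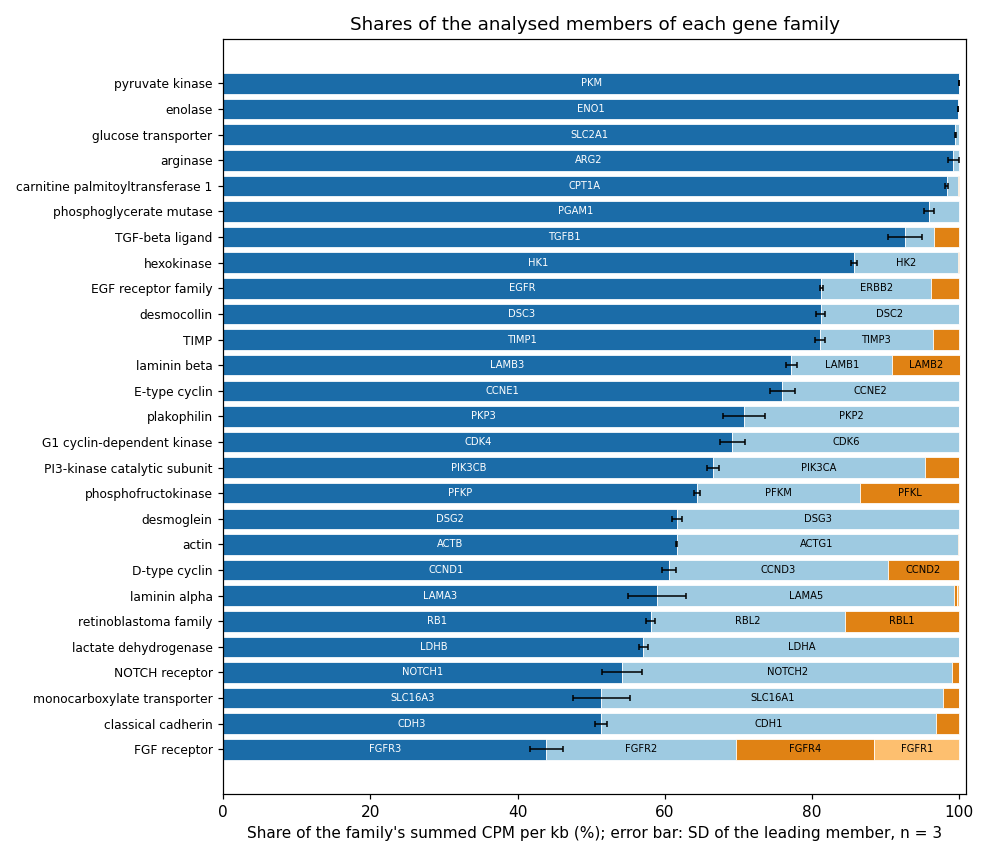
Share of each of 27 gene families' summed level per kb held by its analysed members (bars, mean of 3 shGFP libraries, in percent; the error bar is the SD of the leading member). Leading members hold from 43.9% (FGFR3) to 100% (PKM), and 11 of the 27 hold 80% or more.

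In the TCA cycle 19 of 22 genes reached 10 CPM per kb and none was under 1, with FH (fumarase) at 176, 181 and 178, MDH2 at 103 ± 4.28, SDHB at 78.1 ± 2.6 and IDH2 lowest at 6.47 ± 0.414. Of 9 pentose phosphate and NADPH genes 7 reached 10, led by TKT (transketolase) at 113 ± 6.67 and PGD at 87.5 ± 1.33 CPM per kb. Fatty acid synthesis was led by SCD, the desaturase of stearate, at 298, 299 and 297 CPM per kb, then FASN at 172, 176 and 139 and ACLY at 135, 138 and 133, and 15 of 19 genes of the list reached 10. FASN was lowest in replicate 3. Fatty acid oxidation had 7 of 14 genes at 10 CPM per kb or more, with HADHA at 85 ± 0.953 and ACADVL at 81.6 ± 0.926, and CPT1A, the entry step, at 27.2 ± 0.975, or 98.3% of its family. Its regulator PPARGC1A was at 0.101 ± 0.02 CPM per kb. The list medians were 26.6 CPM per kb for synthesis and 7.67 for oxidation.

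Cholesterol synthesis stood out by its median of 47.0 CPM per kb, at percentile 94.2 of protein-coding genes, with 18 of 21 members at 10 or more. FDPS, which makes farnesyl diphosphate, was at 140, 141 and 143 CPM per kb, FDFT1, which makes squalene, at 99.6 ± 3.03, SQLE, which oxidises it, at 78.2 ± 0.366, and SREBF2, the transcription factor of the pathway, at 43.1 ± 3.01. Of the 16 genes with a promoter, 81.2% held CCAAT and 93.8% GGGCGG. The shares were 36.4% and 66.6% of all promoters, and 38.8% and 74.1% for genes at 10 to 100 CPM per kb. The FDPS promoter (RefSeq, GRCh38.p14, plus strand, chr1:155308616-155308915) is given as the example of the highest member, with its 3 matches to CCAAT (on the other strand ATTGG) and its match to GGGCGG in capitals.
FDPS promoter: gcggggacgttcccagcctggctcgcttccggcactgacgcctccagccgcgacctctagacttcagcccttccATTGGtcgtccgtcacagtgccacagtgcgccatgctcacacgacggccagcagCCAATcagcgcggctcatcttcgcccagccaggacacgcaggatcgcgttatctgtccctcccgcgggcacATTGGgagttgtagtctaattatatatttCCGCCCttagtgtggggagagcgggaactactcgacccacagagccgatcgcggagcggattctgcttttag

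In amino acid metabolism 16 of 24 genes reached 10 CPM per kb. SLC7A5, the leucine transporter LAT1, was at 486, 515 and 451 CPM per kb and its partner chain SLC3A2 at 146, 155 and 140. SLC38A2 was at 143 ± 5.84, ODC1, of polyamine synthesis, at 122 ± 2.66 and the serine enzyme PSAT1 at 78.9 ± 1.1, while PHGDH, the step before PSAT1, was at 4.69 ± 0.285 CPM per kb. Before division by length PSAT1 and PHGDH were closer, at 173 ± 2.4 and 43.2 ± 2.62 CPM. Their gap per kb thus depends on the merged exon lengths of 2.19 and 9.22 kb. ARG2 held 99.2% ± 0.769 of arginase. ASNS at 0.373 CPM per kb is uncertain, with 82% of its 50-base words shared. Of 30 redox and detoxification genes 17 reached 10 CPM per kb. GSTP1, a glutathione transferase, was at 546, 607 and 525, PRDX1 at 359, 380 and 378, TXN (thioredoxin) at 350, 370 and 378 and NQO1 at 110, 113 and 115 CPM per kb. HMOX1, which shares regulators with NQO1, was at 0.631 ± 0.079, and ALDH2 had 0, 0 and 1 counts. None of 8 genes of gluconeogenesis, the urea cycle and liver metabolism reached 10 CPM per kb, with SERPINA1 highest at 7.99 ± 0.31 and TTR at 0 counts.

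Among the PI3-kinase catalytic subunits, PIK3CB held 66.6% ± 0.812 and PIK3CA 28.7% ± 0.698 of the summed level per kb. That lead rested on the length: by median transcript length PIK3CB held 46.2% and did not lead.

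Interferon-stimulated genes were mostly low: 3 of 18 reached 10 CPM per kb. BST2 was at 66.1, 70.6 and 64.4 CPM per kb and OAS3 was at 10.7 ± 0.439. ISG15 was at 5.00 ± 0.355, MX1 had 15, 11 and 19 counts and MX2 2, 0 and 0. In the MHC list 7 of 18 reached 10 CPM per kb, all of class I or its loading path, with B2M at 107, 111 and 116 and HLA-C at 79.3, 88.3 and 71.1. The class II genes were low, with HLA-DRA at 6, 5 and 5 counts and their activator CIITA at 42, 37 and 44. HLA genes vary between people and resemble each other, so their levels are uncertain.

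Markers of other cell types were at low levels in these libraries. No analysed marker of fibroblasts (8), endothelium (9), B cells (10), T and NK cells (4), myeloid cells (6), adipocytes (5), neurons (7), skeletal muscle (2), the erythroid line (2), melanocytes (4) or pluripotent and germ cells (3) reached 10 CPM per kb. The summed levels per list ranged over the libraries from 6.97 to 7.78 CPM for endothelium, 1.93 to 3.79 for B cells, 0.831 to 1.01 for T and NK cells, 30.2 to 34.9 for myeloid cells and 64.6 to 68.7 for fibroblasts. The highest fibroblast markers were PDPN at 5.40 ± 0.236 and FAP at 4.04 ± 0.224 CPM per kb, while LUM was at 0.0464 and PDGFRA at 0.00127. The myeloid sum came from CD14 at 7.40 ± 0.59 and CSF1R at 3.35 ± 0.184 CPM per kb. VWF had 0 counts in every library. The sums were 4.91 to 6.25 CPM for adipocytes, 16.8 to 19.5 for neurons, with MAP2 highest at 0.938 ± 0.0548 CPM per kb, 0.578 to 1.12 for skeletal muscle, 2.24 to 2.54 for the erythroid list, 14.5 to 16.5 for melanocytes, with MITF at 1.90 ± 0.123, and 0.595 to 1.41 for pluripotent and germ cells.

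Shares of counts were taken over classes that overlap. Protein-coding genes held 98.4% ± 0.0863 of counts, transcripts of the mitochondrial genome 3.73% ± 0.503, cytoplasmic ribosomal proteins 4.12% ± 0.162, long noncoding RNA genes 0.836% ± 0.049, and pseudogenes 0.463% ± 0.00883. The mitochondrial share was 3.94%, 3.15% and 4.09%, lowest in replicate 2. MT-CO2, a subunit of cytochrome oxidase, was the highest gene of all per length at 7505 ± 739 CPM per kb, and all 13 proteins of the mitochondrial genome had 916 CPM per kb or more. Of 15 abundant reference genes 12 reached 100 CPM per kb, with ACTB at 1375 ± 74.8 and 61.6% ± 0.104 of the actins. Of 16 translation factors 13 reached 10, led by EEF2 at 811, 879 and 759 and PABPC1 at 595 ± 8.73 CPM per kb, and without the 6 genes of shared sequence 8 did. Of 86 cytoplasmic ribosomal protein genes 70 reached 10 and 44 reached 100, with RPL8 at 881 ± 85 and RPS12 at 826 ± 32.2, and 22 of the 86 share sequence with other genes. Among 17 histone variants and chaperones 13 reached 10, led by H2AFZ at 108 ± 2.27. Replication-dependent histones, whose messages lack a poly(A) tail, held 0.0111% of counts.

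Of 4578 long noncoding RNA genes, 2 reached 100 CPM per kb and 1493 were not detected. MIR205HG, the host gene of miR-205, a microRNA of basal epithelium, was at 561, 532 and 592 CPM, or 160 ± 8.61 per kb. LRRC75A-AS1 followed at 137 ± 3.64, then the snoRNA hosts SNHG8 at 93.0 ± 7.73 and GAS5 at 79.8 ± 4.56, AL445524.1 at 68.5 ± 1.54, SNHG5 at 65.7 ± 1.93, SNHG6 at 56.1 ± 3.05 and DANCR at 54.4 ± 1.6 CPM per kb. Antisense genes such as LRRC75A-AS1 and AL445524.1 cannot be told from overlapping partners without strand.

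The 3 libraries were close to each other, with a Pearson correlation across genes of log2(CPM + 1) from 0.9982 to 0.9987 (genes are not independent replicates). The biological coefficient of variation, the spread beyond counting, was 5.44% over 14911 genes in edgeR. Among 9187 protein-coding genes at 10 CPM or more, the highest library exceeded the lowest by a median of 1.08-fold and 1.44-fold at the 99th percentile. Only 59 genes (0.642%) reached a 1.5-fold range and 9 a 2-fold range. Replicate 3 was the lowest library for all 59, and replicate 2 the highest for 49 and replicate 1 for 10. The widest was IER5L at 16.6, 17.8 and 7.66 CPM, followed by FAM173A, FBXL15, DOHH, ALKBH7, PRR7, NME2, MRPL12, SCAND1 and CCDC85B at 2.24 to 1.99-fold.

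These genes were rich in G and C. Their longest transcripts were also shorter, at a median of 1863 bases against 3919.5 for the other 9128 genes. The median GC content of the longest transcript was 65.5% for the 59 genes and 47.3% for the other 9128, and 51 of the 59 were in the richest of 5 equal groups by GC. In that group the median log2 difference of replicate 3 from the mean of the other libraries was -0.15, against 0.08 in the group lowest in GC. Replicate 2 ran the opposite way, from -0.07 to 0.13, and replicate 1 stayed between -0.01 and 0.03. Each library is set against the others, so the deviations of a gene cancel out. The courses of replicates 2 and 3 are therefore not separate observations. LAMA5, PLEC, AGRN, PKP3, TGFB1 and FASN, each lowest in replicate 3 and named here after their values were seen, had GC contents from 63.5% (TGFB1) to 67.5% (AGRN) and fell in the group richest in GC. The part of this gradient in their values was not tested.

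**Figure D5:**
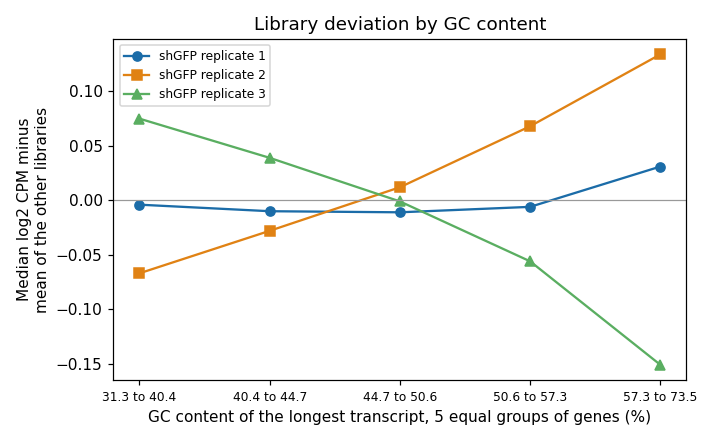
Median log2 CPM of each shGFP library minus the mean of the other libraries, for 9187 protein-coding genes at 10 CPM or more in 5 equal groups by GC content of the longest transcript (%). Replicate 3 falls from 0.08 to -0.15 and replicate 2 climbs from -0.07 to 0.13, while replicate 1 stays near 0. The deviations of a gene cancel out by construction, so the lines are not independent.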

How the data were processed

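The authors deposited raw read counts, whole numbers per gene and library and not normalized, per the file headers and values. Tools listed in the submitters' processing notes, without their roles, are HTSeq 0.8.0, STAR 2.5.3a and DESeq2 1.18.1; the listed builds are mm10 and hg38. Per the labels' protocols, polyadenylated RNA was prepared with a kit that does not mark strand, so overlapping and near-identical genes are uncertain. The table held 26186 genes, the lowest with 7 counts over 9 libraries, of which 26149 matched GENCODE 29 (GRCh38) and 37 did not; 0 rows named no gene. Totals were 24758334 to 27471236 counts, so 3 counts are 0.108 to 0.121 CPM. Reads carried no molecular identifiers and are not independent molecules, so floors and intervals reflect counting error alone.

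CPM was scaled with TMM over the 3 shGFP libraries in edgeR 4.0.16 (R 4.3.3) and divided by the length of merged exons. Genes were classed at 1, 10 and 100 CPM per kb, with a floor of 3 counts. Spread was estimated with edgeR after filterByExpr (minimum count 10, minimum total 15, proportion 0.7). Any 2 libraries differed by more than sampling noise (chi-square per degree of freedom 3.68 to 8.58), so none was a copy of another. Each was counted as 1 replicate, though this difference cannot show that they were separate cultures. With 1 group there was no test between groups. The 57 gene lists and 34 families, with 924 different list genes of which 807 were analysed and 117 had no row, were chosen with earlier results of these data known, as was the choice of these libraries. Named genes were list and family members, the 15 highest genes by CPM and by CPM per kb, the 10 of widest range at 10 CPM or more, the 8 highest long noncoding RNAs, genes within 1 Mb of CDKN2A, and CHAF1B.

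Sequence shared between genes (at least 25% of 50-base words of the longest transcript found in another gene, on either strand; 112 of 997 named genes), GC content and promoter motifs were added after the data had been seen. Alternatives were other scalings, lengths, floors and limits, DESeq2 1.42.0 size factors for the spread, and leaving out each library. Other steps ran in Python 3.11.15 with numpy 2.4.6, pandas 2.3.3, SciPy 1.17.1 and matplotlib 3.10.9, and were tested on simulated data. Some list members are counted but not reported individually here.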

Additional observations from a re-analysis of the deposited data

How the results depend on the processing

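No paired analysis was possible because a single group was described and no groups were compared. Scaling (TMM over 9 libraries, plain totals, totals without mitochondrial transcripts) and leaving out each library kept all 57 list counts within 1.5 times of the reported ones. Of 870 named gene levels, leaving out replicate 1, 2 or 3 moved 13, 18 and 17 by over 1.5 times. The length assigned to a gene mattered more: the median transcript length moved 715 of the 870 levels by over 1.5 times (median ratio 3.7) and the longest transcript 250 (median ratio 1.28), so most printed levels per kb depend on that choice. With the longest transcript 544 genes reached 100 CPM per kb, and the counts at 10 or more became 1 for other collagens, squamous differentiation, liver metabolism and fibroblasts, 2 for the EGF receptor family and 4 for mesenchymal factors. With the median transcript length 2441 genes reached 100 and 8705 reached 10, and the list counts became 5 for contractile genes, 14 for integrins, 11 for basement membrane partners, 4 for other collagens, 6 for mesenchymal factors, 2 for squamous differentiation, 3 for the EGF receptor family, 6 for EGF ligands, 20 for other receptors, 16 for secreted factors, 11 for cyclic AMP, 3 for liver metabolism, 6 for interferon-stimulated genes, 4 for fibroblasts, 2 for myeloid cells and 1 for neurons. A limit of 5 CPM per kb gave 7199 genes, and 4 contractile, 1 other collagen, 5 mesenchymal, 2 squamous, 2 EGF receptor, 15 secreted, 1 liver, 1 fibroblast and 1 myeloid gene. A limit of 20 gave 2470 genes, and 0 cornified keratins, 5 integrins, 1 mesenchymal factor, 5 other receptors, 3 secreted factors, 2 glucocorticoid, 2 cyclic AMP, 9 immediate early, 5 G1, 13 replication, 8 genes of a list not reported here and 7 histone variant genes. A floor of 10 counts gave 9743 genes not detected. Without genes of shared sequence, an alternative chosen after seeing the data, 8 translation factors and 8 mitochondrial proteins reached 10. Leading members were kept in all 34 families under the scalings and without any 1 library, in 30 with the longest transcript and in 24 with the median length. The biological coefficient of variation ran from 3.85% without replicate 3 and 4.73% without replicate 2 to 7.24% without replicate 1, and was 5.38% to 5.47% under other scalings and with no filter. At this depth a gene with 0 pooled counts could still be at 0.0378 CPM by a limit of 3 pooled counts.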
